A study of Rattus norvegicus with 10 samples.

Results

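A stretch of chromosome 1 of the rat genome RN4 that held far fewer methyl-capture tags in rats with status epilepticus (SE) than in control rats was described together with about 1 Mb on each side. All regions of the tag count table within this window were taken, from the one that starts at position 214629610 to the one that ends at 216599432, which gave 182 of the 574544 regions in the table. The stretch drew attention because of its difference between the same control and SE libraries. That difference is therefore given as a description, without a test. At the left end of the window the last region outside and the first one inside held 2.58 ± 0.987 and 1.66 ± 0.344 normalized counts in control rats and 3.46 ± 1.12 and 0.931 ± 0.558 in SE rats (SD, n = 4). At the right end the last region inside and the first one outside held 2.21 ± 1.14 and 1.71 ± 0.949 in control and 2.25 ± 0.952 and 1.25 ± 0.664 in SE rats (SD, n = 4).

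All rats were male Sprague-Dawley rats, an outbred stock, weighing 290 to 320 g, and all carried electrodes in the left amygdala and on the skull. SE rats received electrical pulses to the amygdala for a set time, which was extended in rats without SE, and diazepam later stopped the SE, while sham operated control rats were never stimulated. Tissue of the left hippocampus with CA3 and dentate gyrus was taken 3 months after SE. It was labelled dorsal hippocampus and contains many cell types, and each rat gave 1 library. Control rats 1, 3, 4 and 5 were compared with SE rats 6, 8, 9 and 10. Control rat 2 and SE rat 7, which the labels call discarded without a reason, are given beside them. Total counts lay between 5499370 and 6757566 in the 4 control libraries and between 5785523 and 7179519 in the 4 SE libraries. SE rat 7 stood apart from the other libraries. It had 0 tags in 24 of the 100 regions left of the stretch and in 27 of the 66 regions to its right, where no library of the 8 compared had 0 tags in more than 2 regions of either side.

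Methyl-capture pulls down fragmented DNA with a protein domain that binds methylated CpG sites, the pairs of C and G at which most DNA methylation of mammals is found. A region collects many tags where methylated CpG sites lie close together or where many copies of a sequence align to the same place. Fewer copies of a sequence and less methylation of each copy therefore cannot be told apart in a captured tag count. How tags that fit several near-identical places were assigned is not given in the sources used here. The regions of the table are places at which any pair of libraries had been called different, merged where they touched, so a wide region is one in which such calls ran together. Values are normalized counts, that is CPM, the counts scaled to the same total of tags in the tested regions for each library after TMM scaling, which balances libraries on regions that differ little. A region was tested if the 8 libraries together held at least 70 tags in it.

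The edges of the low-count block were set as the run of neighbouring tested regions with the highest summed score, where each region scored its negative log2 fold change (SE over control) minus 1. The block ran from 215496776 to 215604105, a span of 107 kb. It held 16 regions of the table, of which 11 were tested. The left flank held 100 regions, 46 of them tested, and the right flank 66 regions, 36 of them tested. Inside the edges 12 regions followed the block, with a log2 fold change of -1 or lower, and 4 did not. The 4 exceptions lay together, between 215510695 and 215541593, and parted the block into a left piece of 3 regions, spanning 1.90 kb, and a right piece of 9 regions, spanning 53.4 kb. The pieces lay 52.0 kb apart.

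**Figure D1:**
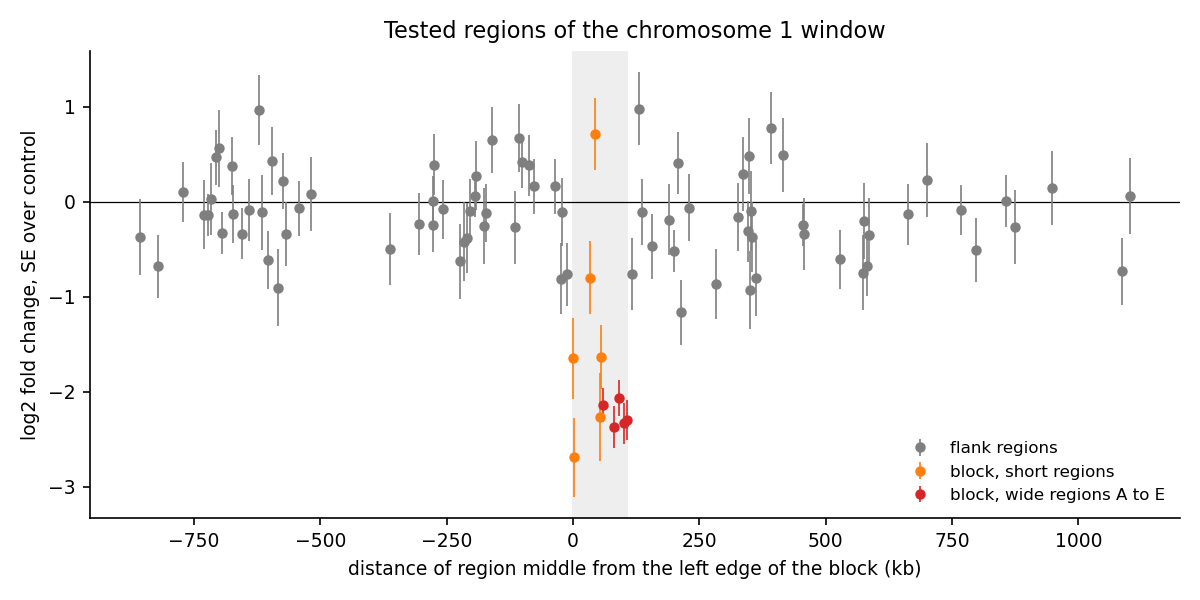
Log2 fold change of SE over control rats (points, with bars of 1 standard error from edgeR) for the 93 tested regions of the window, against the distance of the region's middle from the left edge of the block in kb. The grey band marks the block, in which 9 of 11 tested regions lie below -1, while 1 of the 82 tested flank regions does.

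The right piece was made up of 5 wide regions and 4 short ones. The wide regions, called A to E from left to right, ran from 215552711 to 215560977 (A), from 215573294 to 215583717 (B), from 215583807 to 215592336 (C), from 215593007 to 215600722 (D) and from 215601131 to 215604105 (E). Their lengths were 8266, 10423, 8529, 7715 and 2974 bp, against a median of 457 bp in the table. By length B ranked 16 of all 574544 regions and was the longest of chromosome 1, and E ranked 403. Regions B to E almost touched, with gaps of 90, 671 and 409 bp, and a gap of 12317 bp with 2 short regions in it parted A from B. Together the 5 wide regions covered 37.9 kb and held between 87.1% and 97.0% of the tags of the block in the 8 libraries. Over the whole block control rats 1, 3, 4 and 5 had 796, 856, 1644 and 827 normalized counts, and SE rats 6, 8, 9 and 10 had 520, 127, 119 and 114. Control rat 4 and SE rat 6 were the highest of their groups by a wide margin. The mean of the SE rats was 21.3% of the control mean, and 11.6% without SE rat 6.

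In region B, the longest of them and the one with the most tags, control rats 1, 3 and 5 had normalized counts of 318, 317 and 319 and control rat 4 had 621. SE rat 6 had 200, and SE rats 8, 9 and 10 had 38.4, 34.0 and 31.9. The 3 control rats with near-equal counts thus lay between a single control rat above them and a single SE rat below them, and the other 3 SE rats lay far lower. The group values were 394 ± 151 in control and 76.0 ± 82.5 in SE rats (SD, n = 4). The log2 fold change was -2.37 ± 0.22, given here and for later regions with its standard error from edgeR. Another fitting method, DESeq2, gave a standard error of 0.70 for B. Without SE rat 6 the log2 fold change of B was -3.50. The edgeR error is thus too small to stand for the spread between these rats.

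Region A had lower levels. Control rats 1, 3 and 5 had 96.2, 121 and 97.4 normalized counts, control rat 4 had 199, SE rat 6 had 60.1, and SE rats 8, 9 and 10 had 21.6, 16.9 and 17.8. Control rat 4 was the highest and SE rat 6 was the highest SE rat, and the groups did not overlap. In region C control rats 1, 3, 4 and 5 had 119, 134, 271 and 128 normalized counts, and SE rats 6, 8, 9 and 10 had 83.7, 27.1, 24.1 and 21.2. In region D the same control rats had 172, 188, 368 and 180 and the same SE rats 117, 21.4, 22.7 and 19.1. Region E, the shortest and last of the wide regions, had 63.3, 70.2, 136 and 70.3 in the control rats and 42.1, 8.16, 9.66 and 9.36 in the SE rats. No wide region had a control rat at or below an SE rat. The log2 fold changes were -2.14 ± 0.18 in A, -2.06 ± 0.19 in C, -2.34 ± 0.22 in D and -2.30 ± 0.21 in E. DESeq2 gave larger standard errors, 0.51 in A, 0.55 in C, 0.70 in D and 0.63 in E.

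The 5 wide regions placed the rats at similar levels when each was set against its own mean of control rats 1, 3 and 5. Control rat 4 had between 1.90 and 2.14 times that mean. SE rat 6 had between 57.4% and 66.0% of it. SE rats 8, 9 and 10 had between 11.9% and 21.4%, between 10.7% and 19.0% and between 10.0% and 16.9% of it. Control rats 1, 3 and 5 themselves had between 91.8% and 115% of their mean. The rats thus fell on about 4 levels, and each group spanned more than 1 of them. Control rat 4 was between 3.11 and 3.31 times as high as SE rat 6, and SE rat 6 between 2.78 and 5.20 times as high as the next SE rat. The lowest control rat was between 1.42 and 1.60 times as high as SE rat 6.

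**Figure D2:**
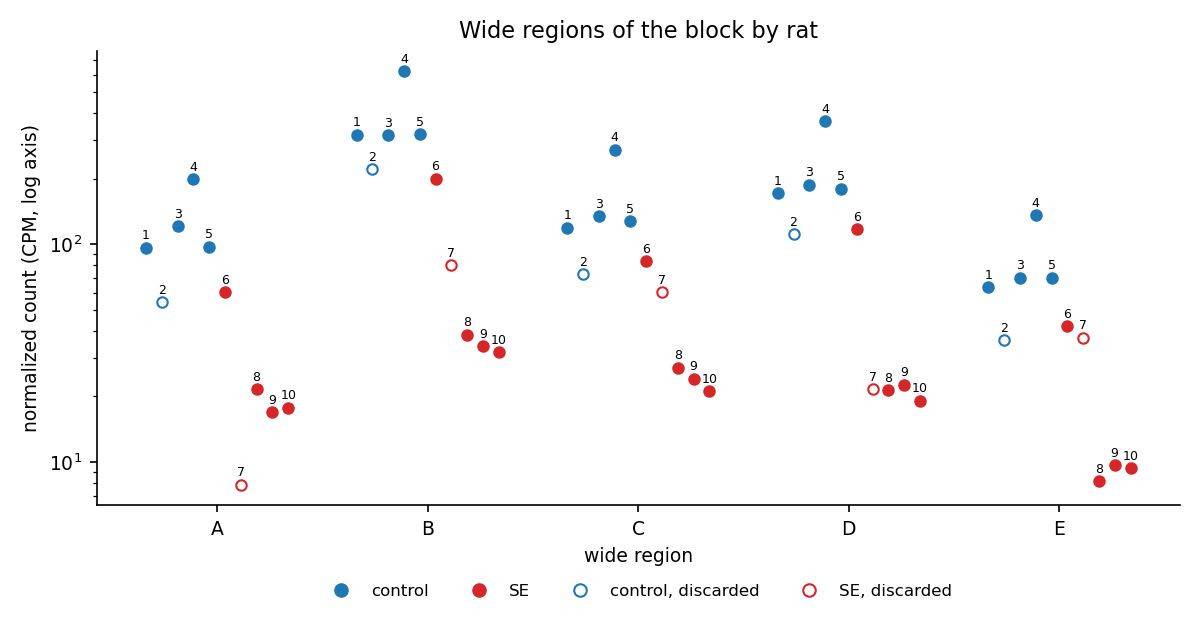
Normalized counts (CPM, log axis) of the 5 wide regions A to E, 1 point per rat, labelled with the rat's number. Control rats 1, 3 and 5 lie close together in every region, control rat 4 above them and SE rat 6 below them, with SE rats 8 to 10 lowest among the 8 rats compared. The open points are the discarded rats.

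As a share of the control mean, regions A and C had higher values in the low rats than B, D and E did. A and C also had the lowest control levels per kb of the 5, 15.5 and 19.1 CPM, so a larger share need not mean a higher level per kb. SE rats 8, 9 and 10 had 16.8%, 13.2% and 13.8% of the mean of the 4 control rats in A and 16.6%, 14.8% and 13.0% in C. In B they had 9.75%, 8.64% and 8.10%, and in D 9.42%, 10.0% and 8.42%. In E the values were 9.60%, 11.4% and 11.0%. The ratio between the highest and the lowest of the 5 regions was between 1.71 and 1.79 in these 3 rats, and between 1.07 and 1.17 in the control rats and SE rat 6. Single libraries held between 34 and 167 tags per wide region in SE rats 8 to 10, so that counting error bears more on these values than on those of the control rats, which held between 262 and 2400.

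Per kb of region, the wide regions were among the most captured of the table in control rats. Their control level was 15.5 in A, 37.8 in B, 19.1 in C, 29.4 in D and 28.6 CPM per kb in E, above that of 99.8% of all tested regions in A and of 99.9% in B. The median of all tested regions was 4.79 CPM per kb. In SE rats the levels of the 5 regions were 3.52, 7.29, 4.58, 5.84 and 5.82 CPM per kb. For A this was below the median of all tested regions in SE rats, 4.79 CPM per kb, with 9.38% of the tested regions lower still, and for B it was above that of 97.3% of them. The filter asks for 70 tags whatever the length, so short tested regions start at a higher level per kb. These shares thus depend on region length too. Regions of at least 2500 bp outside the window had a median of 5.36 CPM per kb over the 8 rats, and a lowest value of 2.29. The mean of the SE rats rests on SE rat 6. In SE rats 8, 9 and 10 the 5 regions together had 3.08, 2.83 and 2.62 CPM per kb, and in SE rat 6 they had 13.3. The same 8 rats had between 4.22 and 5.17 CPM per kb in both flanks together. The wide regions thus stood above the flanks in every control rat and in SE rat 6, and below them in the other 3 SE rats.

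Wide regions elsewhere in the table varied much less between the rats of 1 group. The table held 758 other regions of at least 2500 bp outside the window. Among the 4 control rats the standard deviation of log2(CPM + 0.1) had a median of 0.192 in these, with a 95th percentile of 0.428, and lay between 0.482 and 0.553 in A to E. Among the 4 SE rats the median was 0.174 and the 95th percentile 0.405, and A to E lay between 0.855 and 1.27. At least the lowest value of A to E was reached by 24 of the 758 regions among the control rats and by 3 among the SE rats. A to E were therefore rare but not alone in their spread within a group. Of the 1696 regions of the table with a mean of at least 50 tags per library, 5 had SE rats 8, 9 and 10 all below 50% of the lowest control rat, and these were A to E. That count uses the difference by which the block was found, and nothing is read from it.

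**Figure D3:**
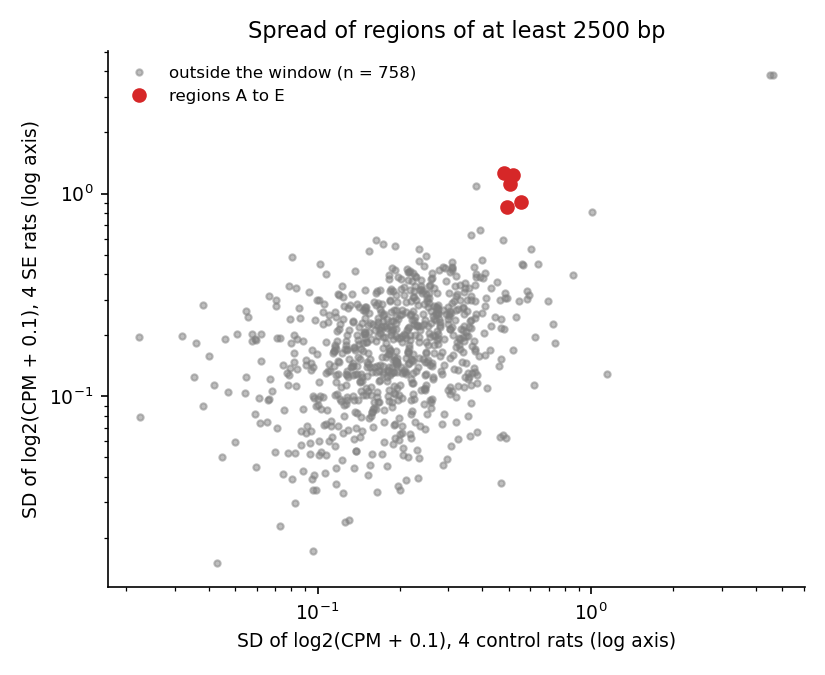
Standard deviation of log2(CPM + 0.1) among the 4 control rats and among the 4 SE rats (both log axes) for the regions of the table of at least 2500 bp. Regions A to E lie between 0.482 and 0.553 on the control axis and between 0.855 and 1.27 on the SE axis, above most of the 758 regions outside the window.

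Of the 11 short regions inside the edges, 7 followed the block. They were between 443 and 564 bp long and held between 53 and 123 tags over the 8 libraries, and 4 of them were tested. Their log2 fold changes, from the fit without a region filter, lay between -2.88 and -1.62. The threshold of -1 fixes their direction, so these values are a description only. Nearest to that threshold in this fit were a region at -1.62 inside it and one at -0.79 outside it. Summed over the 7 regions, control rats 1, 3, 4 and 5 had 21.0, 19.8, 40.4 and 25.2 normalized counts, and SE rats 6, 8, 9 and 10 had 11.3, 4.32, 3.62 and 5.54. Control rat 4 was again highest and SE rat 6 again the highest SE rat, in the sum as in the wide regions. Control rat 4 was the highest of the 8 rats in all 7 of the short regions and in all 5 wide ones, and SE rat 6 the highest SE rat in 5 of the 7 and in all 5. Over all tested regions, control rat 4 was highest in 13.4% and SE rat 6 highest among SE rats in 24.1%. In the 82 tested flank regions the shares were 22.0% and 17.1%. The block's regions were picked by a low ratio of SE to control, which all but makes a control rat the highest. These shares are thus no fair background for control rat 4, and nothing is read from its count.

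In the left piece, 52.0 kb away from the right piece, control rat 4 and SE rat 6 were again the highest of their groups. The left piece was picked by the same low ratio, so nothing is read from the rank of control rat 4 there. The order of the other rats differed between the pieces. The left piece comprised a tested region from 215496776 to 215497340, an untested one from 215497351 to 215497877 and a tested one from 215498123 to 215498675. Together they had 8.70, 8.40, 19.4 and 11.0 normalized counts in control rats 1, 3, 4 and 5 and 4.39, 1.92, 1.69 and 2.87 in SE rats 6, 8, 9 and 10. As a share of the control mean, control rat 4 had 163% in the left and 160% in the right piece, SE rat 6 had 37.0% and 50.4%, and SE rats 8, 9 and 10 had 16.2%, 14.2% and 24.1% in the left and 11.8%, 10.8% and 10.1% in the right piece. These shares rest on between 7 and 75 tags per library in the left piece and on between 453 and 6248 in the right piece. Of all tested regions of the table, the one from 215498123 to 215498675 had the lowest log2 fold change, -2.69 ± 0.41. It held 19, 18, 25 and 20 tags in the control rats and 6, 3, 3 and 1 in the SE rats, with every control rat above every SE rat. The region from 215496776 to 215497340 differed in this. Control rats 1, 3, 4 and 5 had 1.21, 1.98, 8.02 and 5.17 normalized counts there, and SE rats 6, 8, 9 and 10 had 2.31, 0.720, 0.483 and 1.53. Without control rat 4 this region did not pass the filter and was not tested.

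Of the 4 short regions of the right piece, 2 lay just before A. The region from 215550721 to 215551191 had a log2 fold change of -2.27 ± 0.47. Its groups overlapped, with SE rat 6 at 1.85 above control rat 1 at 1.69. The region from 215551465 to 215551961 had -1.64 ± 0.34, and its groups did not overlap, with 5.44 ± 0.678 normalized counts in control and 1.72 ± 1.24 in SE rats (SD, n = 4). The other 2 lay in the gap between A and B, from 215570099 to 215570542 and from 215571856 to 215572339. They held 59 and 53 tags in all and were not tested. In the former all control rats lay between 2.22 and 4.66 and all SE rats between 0.191 and 0.483 normalized counts. The gap was thus sparsely captured but its regions followed the block.

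The 4 regions between the pieces did not follow it. Summed, they had 6.53, 5.68, 8.54 and 7.86 normalized counts in control rats 1, 3, 4 and 5 and 5.78, 5.52, 8.21 and 9.17 in SE rats 6, 8, 9 and 10. The group values were 7.15 ± 1.29 in control and 7.17 ± 1.80 in SE rats (SD, n = 4), and the groups overlapped. Of the 2 that were tested, the region from 215529777 to 215530250 had a log2 fold change of -0.80 ± 0.38. Control rat 4 was the highest rat in it, at 5.17 normalized counts, and the other rats lay between 1.20 and 3.52. The region from 215540955 to 215541593 had 0.71 ± 0.38. SE rat 9 was highest there, at 5.31, and control rats 1, 3 and 4 and SE rat 6 lay between 1.39 and 1.55. The untested regions, from 215510695 to 215510967 and from 215532392 to 215532863, had log2 fold changes of 0.14 and 0.13 with standard errors of 0.84 and 0.44 in the fit without a region filter. The first of them held between 1 and 3 tags per library, too few to show a difference of the block's size. Because these 4 regions were picked out by their fold change, their level is a description as well.

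**Figure D4:**
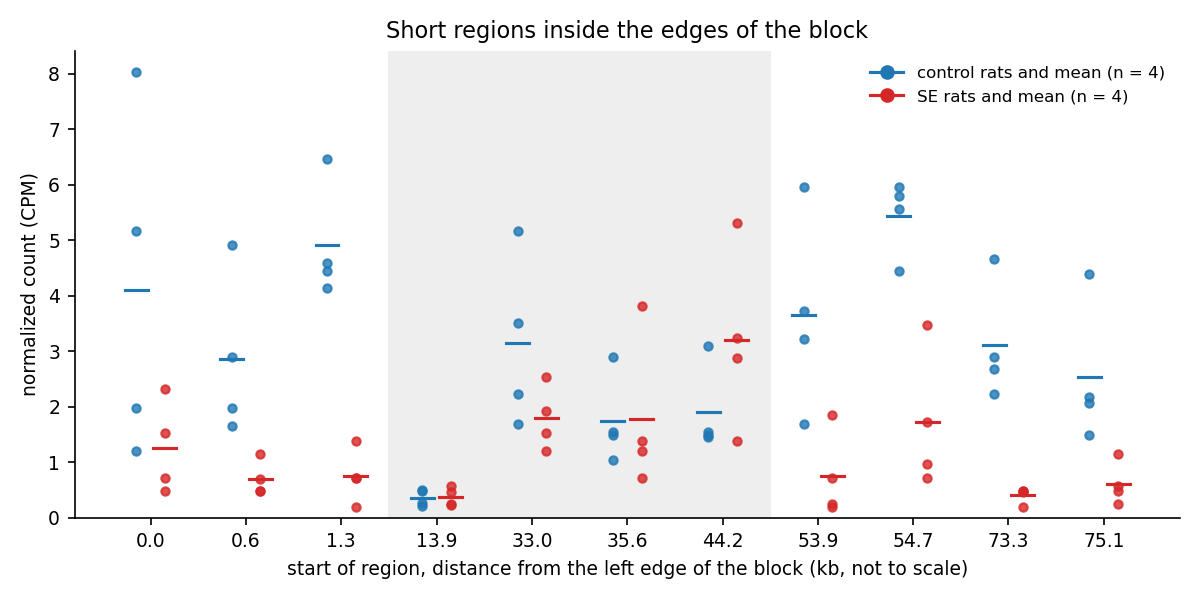
Normalized counts (CPM) of the 11 short regions inside the edges of the block, ordered by position and labelled by the distance of their start from the left edge in kb. Points are the 4 control and the 4 SE rats, horizontal lines the group means, and the grey band marks the 4 regions that did not follow the block, in which the groups overlap.

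The edge rule ends the block where scores turn negative, so some step at both edges is built in. At the right edge the step was large, from a log2 fold change of -2.30 in region E. Region E ended at 215604105, and the next tested region began 9.83 kb further on, at 215613933, and ended at 215614510. There control rats 1, 3, 4 and 5 had 4.11, 2.97, 2.33 and 2.90 normalized counts and SE rats 6, 8, 9 and 10 had 1.39, 2.16, 2.66 and 1.15, so that the groups overlapped and control rat 4 was the lowest control rat. Its log2 fold change was -0.76 ± 0.38. The second region beyond the edge, from 215627795 to 215628199, lay the other way. It had between 1.03 and 1.98 in control and between 2.64 and 3.86 in SE rats, with a log2 fold change of 0.98 ± 0.39. The third, from 215632132 to 215632658, had -0.11 ± 0.35. Control rat 4 was not the highest control rat in any of these 3 regions.

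The left edge was less sharp. The tested region just inside it had a log2 fold change of -1.65 ± 0.42. The nearest tested region outside, 12.6 kb away, ran from 215483623 to 215484226 and had -0.77 ± 0.33. Its control rats had between 3.36 and 5.44 normalized counts, with control rat 4 the lowest of them, and its SE rats between 1.34 and 3.86. The second, from 215475624 to 215476346, had -0.11 ± 0.36, and the third, from 215472274 to 215472889, had -0.81 ± 0.37. Without a region filter the left edge moved to the start of the right piece, at 215550721, because the 4 regions between the pieces then all counted against the run. Without control rat 4 and without control rat 5 it moved to 215551465, and without SE rat 9 to 215483623. The right edge was at 215604105 with each of the 8 rats left out.

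In the flanks, outside the edges, the levels of the groups lay close together. The 100 regions of the left flank summed to 223, 254, 250 and 241 normalized counts in control rats 1, 3, 4 and 5, and to 208, 258, 221 and 227 in SE rats 6, 8, 9 and 10. SE rat 8 was the highest of the 8 rats and the groups overlapped, with 242 ± 13.6 in control and 229 ± 21.0 in SE rats (SD, n = 4). The 66 regions of the right flank summed to 142, 164, 179 and 170 in the control rats and to 141, 148, 130 and 143 in the SE rats. These groups overlapped only through control rat 1, which lay below SE rats 8 and 10. Their values were 163 ± 15.7 and 141 ± 7.61 (SD, n = 4), so that the SE rats had 86.2% of the control level in the right and 94.4% in the left flank, against 21.3% in the block.

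The small difference of the right flank showed no steady decline with distance from the right edge. Within 100 kb of that edge the SE rats had 83.4% of the control level, against 20.8% in the right piece of the block. The 12 regions there summed to between 28.3 and 35.2 normalized counts in control and between 24.4 and 26.8 in SE rats. The groups did not overlap in this stretch alone of those given here. Control rat 4 was the highest rat in it, at 35.2, but SE rat 6 did not stand apart, with 26.8 as in SE rat 9. Between 100 and 500 kb the SE rats had 83.4% of the control level, and beyond 500 kb 92.6%, with overlap in both. On the left the SE rats had 94.1% within 100 kb, 97.9% between 100 and 500 kb and 92.3% beyond, with overlap throughout. Control rat 4 and SE rat 6, which stood apart in the block, had 109% and 86.6% of the control mean in the right and 103% and 85.9% in the left flank. Set against its own flanks, the block held 2.18, 2.05, 3.84 and 2.01 times their tags in control rats 1, 3, 4 and 5. In SE rats 6, 8, 9 and 10 it held 1.49, 0.312, 0.339 and 0.308 times their tags, so that control rat 4 stayed the highest rat and SE rat 6 the highest SE rat.

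**Figure D5:**
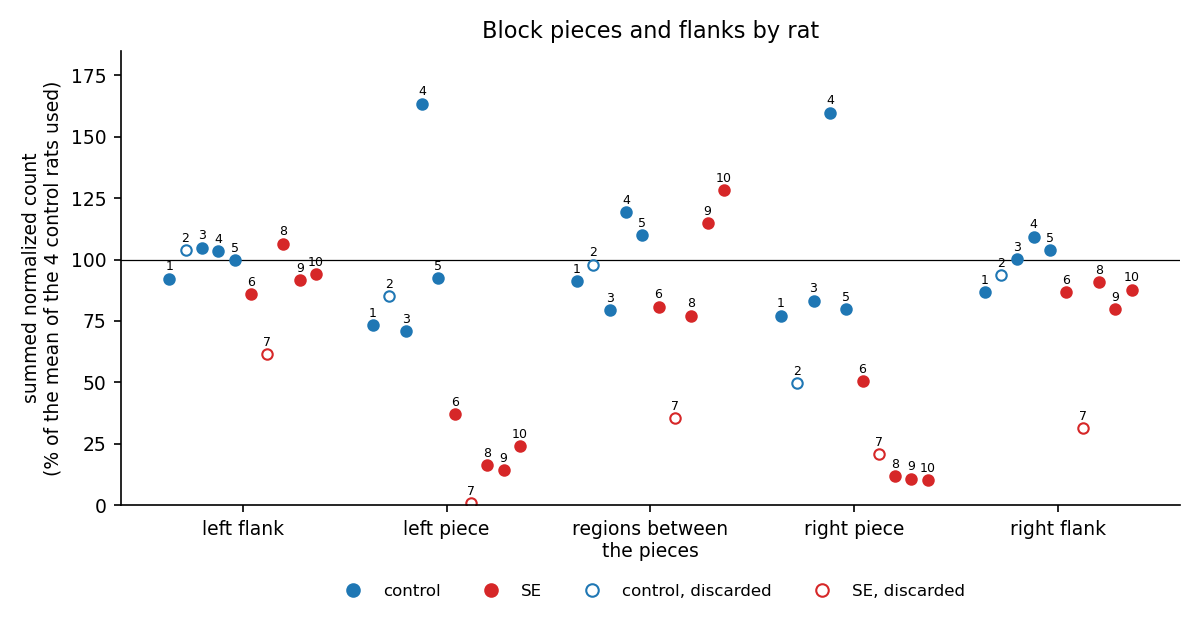
Summed normalized counts of the left flank, the left piece of the block, the 4 regions between the pieces, the right piece and the right flank, as a percentage of the mean of the 4 control rats compared, 1 point per rat labelled with its number. Control rat 4 stands at 163% and 160% in the pieces and at 103% and 109% in the flanks, and the open points are the discarded rats.

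Of the 93 tested regions of the window, 10 were called lower in SE rats at an unadjusted p below 0.01 from edgeR's quasi-likelihood test, and 9 of them were in the block. Over all 291987 tested regions 1.07% were called lower and 1.65% were called in either direction. As the block was chosen by this contrast, nothing is read from its count. In the flanks 1 of 82 tested regions was called lower. None of the 93 was called higher with this test, against 0.584% of all tested regions, nor with edgeR's exact test or DESeq2, against 0.506% and 0.139%, while 1 left flank region was with library totals in place of TMM. At an unadjusted p below 0.05 the quasi-likelihood test had 23 of the 93 regions lower and 3 higher in SE rats, against 3.97% and 2.93% of all tested regions. The exact test had 18 lower and 2 higher, against 3.44% and 2.49%, and DESeq2 11 lower and 2 higher, against 1.92% and 1.24%. In the 82 tested flank regions alone the same 3 tests had 13, 9 and 2 lower and 3, 2 and 2 higher, so that the number of lower flank regions depended on the test. Every SE rat lay below every control rat in 3 flank regions and above in 2, where over all tested regions 1.94% and 1.69% did so. Those below ran from 215779544 to 215780126, from 215859291 to 215859715 and from 216583481 to 216584292, with log2 fold changes of -0.87, -0.81 and -0.73. Those above were the region 2 places beyond the right edge and one from 214874397 to 214874865, with 0.96. These were picked out after their values were seen.

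The flank region called lower ran from 215709938 to 215710596. Control rats 1, 3, 4 and 5 had 3.87, 2.22, 5.95 and 5.997 normalized counts there, and SE rats 6, 8, 9 and 10 had 1.85, 2.88, 0.966 and 2.29. The groups overlapped, since control rat 3 lay below SE rats 8 and 10, and the log2 fold change was -1.16 ± 0.34. It was not called without control rat 5, at -0.98, nor with all 10 libraries. The flanks leaned to lower values in SE rats. Of their tested regions, 27 of 46 on the left and 26 of 36 on the right had a negative log2 fold change, which is 58.7% and 72.2%, against 49.7% of all tested regions. The medians were -0.10 and -0.22, against 0.0024 over all tested regions. Regions were sparse here, with 112 per Mb in the left and 66.3 per Mb in the right flank, against 213 per Mb over chromosome 1. The part of region density in the lower flank values was not tested.

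The most captured flank regions lay at ordinary levels. On the left these were the regions from 214801600 to 214803096, with 8.14 ± 0.818 normalized counts in control and 6.48 ± 1.22 in SE rats, from 214773455 to 214774711, with 7.50 ± 2.26 and 6.72 ± 0.888, and from 215301994 to 215302976, with 7.40 ± 0.970 and 7.80 ± 1.76 (SD, n = 4). On the right they were the regions from 215695957 to 215697047, with 8.61 ± 1.91 and 6.02 ± 1.07, from 215950329 to 215951526, with 8.19 ± 1.86 and 6.94 ± 1.84, and from 216263928 to 216264934, with 5.60 ± 2.44 and 5.40 ± 1.46 (SD, n = 4). All 6 overlapped between the groups. Their log2 fold changes were -0.33, -0.14 and 0.06 on the left and -0.52, -0.24 and -0.09 on the right. No flank region was longer than 1496 bp, whereas 5 of the 16 regions of the block were longer than 2500 bp.

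The discarded rats were not among the libraries whose contrast located the block. Control rat 2 had 54.2, 221, 72.9, 111 and 36.4 normalized counts in regions A to E, between 42.2% and 56.1% of the mean of the 4 control rats compared. It was thus close to SE rat 6, which had between 46.8% and 51.6%, and below all 4 of those control rats in each wide region. Its flanks summed to 251 on the left and 153 on the right, within the range of the control rats. SE rat 7 had 7.89, 80.3, 60.1, 21.6 and 37.2 in A to E, between 6.14% and 43.8% of that mean. Its level relative to that mean differed 7.13-fold between the 5 regions, where the other 9 libraries had at most 1.79-fold, and its flanks were low too, at 61.6% on the left and 31.5% on the right. When these 2 rats were included, the groups overlapped in A, C, D and E, since control rat 2 lay below SE rat 6 there. The block's sum was 520 in control rat 2 as in SE rat 6, and 212 in SE rat 7.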

How the data were processed

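DNA of 10 rats, 1 library per rat, was enriched for methylated fragments with an MBD capture kit and sequenced. The deposited values are raw tag counts per region. The authors aligned tags to RN4 with BWA at default settings and called differences between all pairs of libraries with MACS. They merged these with BEDTools and took tag counts per library over the merged regions. The paper also states that duplicate tags at a shared position within a library were left out. Every column of counts belonged to a rat in the labels, which also gave the groups and called control rat 2 and SE rat 7 discarded. Totals of the 10 libraries ranged from 5499370 to 14655629 counts. Tested flank regions held between 2 and 51 tags per library, so counting error limits each of them.

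Counts of control rats 1, 3, 4 and 5 and SE rats 6, 8, 9 and 10 were fitted over the whole table with edgeR 4.0.16 in R 4.3.3, with TMM scaling and the quasi-likelihood test. Regions whose summed count reached the 50th percentile, 70 tags, entered the fit. A region was called at an unadjusted p below 0.01, as in the study's methods. Log2 fold changes carry the standard error of that fit, which in regions A to E was smaller than that of DESeq2. Levels are counts divided by the TMM-scaled count of all tested regions of a library (CPM), and were summed over regions. The total of the tested regions was used in place of the total of the whole table. Edges, window sums and spreads were computed with Python 3.11.15. No p-value is given for the regions, since the window and the block were chosen with earlier results of these data known, and so were all lists and rules here.

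Named regions are all inside the edges, the 3 tested regions next to each edge, the 3 with the highest mean level in each flank and any flank region called. The fit was tested on simulated data for SE against control over 291987 regions. It found 71% of changes of 1 and 99% of changes of 2 on the log2 scale and called 0.949% of unchanged regions. The simulation gave all regions the same dispersion between rats, so these rates do not cover regions as variable as A to E. Alternatives covered scaling, region filter, test (edgeR's exact test and DESeq2 1.42.0), libraries and edge rule. Genes and sequences of the window are not given, as no annotation of RN4 was used here.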

Additional observations from a re-analysis of the deposited data

Results flagged for a closer look

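In 64 groups of 4 rats, 14 had 1 rat far from the other 3 by the gap relative to the group's range, where chance gives about 1 in 20 separate groups. These groups are not separate, so the count is not read against that rate: 11 of the 14 were control rat 4 or SE rat 6 in the block's sum and in the wide regions that hold most of its tags. Summed over the block, control rat 4 had 1644 normalized counts where the next control rat had 856, and SE rat 6 had 520 where the next SE rat had 127. Control rat 4 stood apart in wide regions B, C, D and E, with 621, 271, 368 and 136. SE rat 6 stood apart in all 5 wide regions, with 60.1 in A, 199.8 in B, 83.7 in C, 117.0 in D and 42.1 in E.

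The other 3 cases were control rat 4 with 10.9 in the left flank region from 214773455 to 214774711, control rat 5 with 3.10 in the region from 215540955 to 215541593, which did not follow the block, and SE rat 10 with 0.191 in the region from 215570099 to 215570542, where this is 1 tag.

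The library of discarded SE rat 7 lay above every control rat in 3 of the named regions, although it lay below them in the block and the flanks as a whole. It had 14.3 normalized counts from 214801600 to 214803096, 7.69 from 215475624 to 215476346 and 1.36 from 215510695 to 215510967.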

How the results depend on the processing

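The block's summed level stayed lower in SE rats under every alternative tried, with log2 ratios from -3.10 to -1.73 around -2.23. The block was located by this difference in the same libraries, which all but fixes the sign, so nothing is read from the sign. The log2 ratio was -3.10 without SE rat 6, and with each rat left out in turn it ranged from -3.10 to -1.91. After the data were seen, leaving out control rat 4 and SE rat 6 together was added, which gave -2.78, and keeping only the wide regions, which gave -2.27. The flank ratios, -0.08 on the left and -0.21 on the right, ranged from -0.14 to -0.04 and from -0.27 to -0.17 with each rat left out, and were -0.22 and -0.41 with all 10 libraries.

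The left edge at 215496776 moved to 215550721 without a region filter or with an edge constant of 1.5, to 215552711 with at least 10 counts in every library, which left 27 window regions, and to 215483623 with a constant of 0.5. With each rat left out it ranged from 215483623 to 215551465. The right edge moved to 215614510 with all 10 libraries and with a constant of 0.5. The region that ends there had a log2 fold change of -1.20 with all 10 libraries and -0.76 in the main fit. Its score was thus positive under both settings, which extends the run by the edge rule.

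The 10 regions called lower became 6 with at least 10 counts in every library and 13 without a filter. With each rat left out they ranged from 8, without control rat 4, to 11. Only 9 block regions passed the filter without control rat 4, against 11 in the main fit. With all 10 libraries there were 7 of 74 tested. The 0 called higher became 1 with library totals, upper-quartile scaling or no filter, and ranged from 0 to 1 with each rat left out (1 without control rat 4, control rat 5 or SE rat 8). This was the region starting at 214874397 in each case.

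Directions turned in 5 flank regions near 0. With each rat left out, log2 fold changes ranged from -0.22 to 0.078 in the region starting at 214773455, from -0.032 to 0.22 at 215301994, from -0.26 to 0.21 at 215475624, from -0.25 to 0.091 at 215632132 and from -0.31 to 0.23 at 216263928. With all 10 libraries they were -0.17 at 215301994 and 0.46 at 215475624. The block region starting at 215496776 was not called by DESeq2, at -1.69, or with all 10 libraries, at -2.08. The flank regions starting at 215472274 and 215483623 were called without control rat 3, at -1.02, and without SE rat 9, at -1.05. No paired analysis was possible because no rat number is shared between the groups.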
